A study of Homo sapiens with 4 samples.

Results

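The regions described here are the promoter regions tiled inside 3 chromosomal windows that hold leukocyte receptor gene families. On the scale of the deposited coordinates (read as NCBI36/hg18) these are chr19:56300000-56900000 for the SIGLEC genes, chr19:59300000-60200000 for the LILR, LAIR and KIR genes, and chr12:9600000-10700000 for the lectin-like receptors of natural killer (NK) cells. A design region is a stretch that the array maker tiled as 1 unit. Design regions with at least 5 probes starting inside a window were taken, which gave 74 of the 18008 design regions that were tested. The SIGLEC window held 16 regions, the LILR/LAIR/KIR window 34 and the NK lectin receptor window 24, and none of the regions there had fewer than 5 probes.

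The samples were 4 two-colour ChIP-chip arrays of HEK293, a human embryonic kidney cell line, stably transfected with RPF-1, a transcription factor that carries an HA tag and is switched on when tetracycline is withdrawn. Induced cells (Tet-) were kept for 48 h without tetracycline and uninduced cells (Tet+) for 48 h with it, and both were fixed for 10 min with 1% formaldehyde. Chromatin of both was sheared to about 500 bp and precipitated with 5 µg of anti-HA antibody, and the recovered DNA underwent whole-genome amplification before 1 µg was labelled. On every array Cy5 labelled the induced and Cy3 the uninduced precipitate, so an effect of the dye and an effect of induction cannot be told apart. Each value below is a log2 ratio of induced to uninduced signal, with n = 4 arrays, and a ratio above 0 means more signal from induced cells. Arrays 2 to 4 carry different preparation numbers (Tet4- with Tet3+, Tet10- with Tet7+ and Tet13- with Tet9+) and array 1 carries none. The labels do not say whether the line is 1 clone or whether each preparation was its own culture, and the spread that the p-values rest on may therefore be technical.

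The SIGLEC proteins are sialic acid-binding receptors of myeloid and lymphoid cells, and many carry inhibitory tails. In the LILR/LAIR/KIR window, LILR receptors of myeloid and B cells and KIR receptors of NK cells include many that bind HLA class I molecules, while LAIR receptors bind collagen. The NK lectin receptor window encodes C-type lectin-like proteins, among them the KLR family, which includes the HLA-E receptors formed with CD94 and the stress-ligand receptor NKG2D, and CLEC receptors of myeloid cells such as CLEC7A, the beta-glucan receptor. All 3 groups of genes arose by repeated duplication, and HEK293 is not a leukocyte line.

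Duplicated promoters matter on a tiling array because 1 probe can match several of them. The files pair no probe with a gene, and no annotation of their build was used, so the regions below are given by position. As a guide to how alike the promoters are, 300-base RefSeq promoters (GRCh38.p14) were compared. Of 7 KIR promoters in that table, 5 shared at least 1 window of 50 bases with another promoter, with a median of 37.1% of all windows shared, against 4 of 11 SIGLEC and CD33 promoters, 2 of 8 LILR promoters and 0 of 3 KLRC promoters (KLRC1, KLRC3 and KLRC4). Of the 4 SIGLEC promoters, 2 (SIGLEC11 and SIGLEC16) lie more than 1 Mb from the other SIGLEC genes. Promoters of some family members, among them LILRA3, LILRA4, LILRA6 and KLRC2, were not in that table, so sharing with them was not counted. Across all 27305 promoters of the table, 19.4% held a shared window. The 250 bases before the start of 3 KIR genes show this, with capitals marking bases that lie in a 50-base window shared with another promoter. KIR2DL3 (chr19:54738263-54738512, plus strand, 161 bases in capitals) and KIR3DL1 (chr19:54816218-54816467, plus strand, 210 in capitals) are receptors for HLA-C and HLA-B allotypes respectively, and KIR2DL4 (chr19:54803360-54803609, plus strand, 0 in capitals) is a family member whose promoter shares no such window.
KIR2DL3: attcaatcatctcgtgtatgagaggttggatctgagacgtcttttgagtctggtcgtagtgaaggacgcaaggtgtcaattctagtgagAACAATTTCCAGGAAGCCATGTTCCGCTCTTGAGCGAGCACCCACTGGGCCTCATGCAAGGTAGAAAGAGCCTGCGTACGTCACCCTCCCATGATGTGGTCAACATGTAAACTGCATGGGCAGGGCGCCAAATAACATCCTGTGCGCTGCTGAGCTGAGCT
KIR3DL1: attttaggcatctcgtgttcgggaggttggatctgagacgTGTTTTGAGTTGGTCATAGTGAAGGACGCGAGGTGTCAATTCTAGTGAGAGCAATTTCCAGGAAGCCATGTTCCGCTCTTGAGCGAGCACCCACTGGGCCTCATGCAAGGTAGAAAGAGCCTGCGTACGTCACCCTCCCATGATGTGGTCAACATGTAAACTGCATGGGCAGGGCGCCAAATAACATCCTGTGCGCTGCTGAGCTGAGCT
KIR2DL4: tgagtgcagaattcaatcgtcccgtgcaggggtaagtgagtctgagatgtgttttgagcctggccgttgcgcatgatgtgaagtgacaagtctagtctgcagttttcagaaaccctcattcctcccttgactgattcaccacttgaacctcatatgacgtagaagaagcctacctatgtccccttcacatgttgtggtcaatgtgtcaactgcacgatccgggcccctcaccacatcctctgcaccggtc

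On the arrays, 35.4% of the 633 probes of the LILR/LAIR/KIR regions were multi-match probes, meaning that their deposited count field, read as the number of genomic matches, was above 1. The share was 12.1% of 448 probes in the NK lectin receptor regions, 8.68% of 357 in the SIGLEC regions and 6.28% in all other regions.

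To ask where the induced and uninduced precipitates differed, the mean ratio of each region was tested against 0 with limma (two-sided, Benjamini-Hochberg adjustment over all 18008 regions, threshold 0.05). Of the 74 regions, 24 passed with a ratio above 0 (called higher) and 2 with a ratio below 0 (called lower), where the same test called 13.7% of all regions higher and 13.5% lower. The SIGLEC window had 5 higher and 0 lower, the LILR/LAIR/KIR window 10 higher and 1 lower, and the NK lectin receptor window 9 higher and 1 lower. The other 48 regions did not pass, with means between -0.19 and 0.28. All 4 arrays were above 0 in 26 of the 74, where 20.6% of all regions were. The counts depended on single arrays: leaving out array 2 or array 4 left 10 regions higher and 0 lower in either case. Those tests called 6.33% of all regions higher and 5.15% lower without array 2, and 6.2% and 4.44% without array 4. They also depended on the surroundings. After the median of the 20 nearest regions outside the windows was subtracted, 13 regions were higher and 16 lower. That test called 16.2% of all regions higher and 11.2% lower, and 13 of the 16 lower ones lay in the NK lectin receptor window. The subtracted median came from single-match probes only, while each tested region kept all its probes. Regions rich in multi-match probes were thus set against a baseline without such probes.

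**Figure D1:**
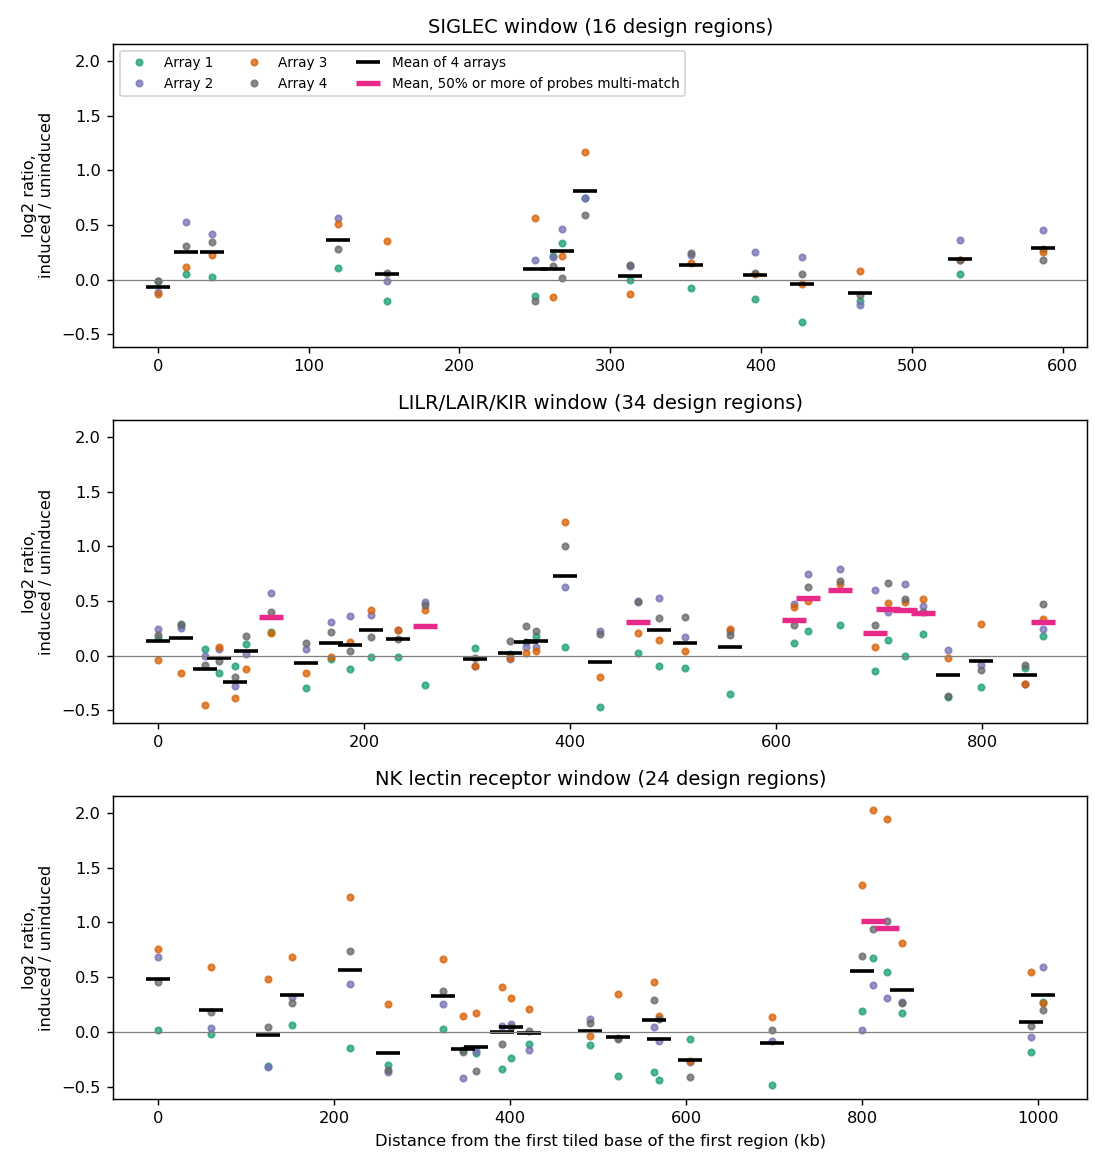
Log2 ratio (induced over uninduced) of the 74 design regions in each of the 4 arrays (points) and their mean (bars), against the distance in kb from the first tiled base of each window. The SIGLEC panel has 1 region at 0.81, the LILR/LAIR/KIR panel has a run of multi-match regions towards its right end, and array 3 is the highest point in 21 of 24 NK lectin receptor regions.

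On all probes, differences between the means of the 3 windows were smaller than the spread between arrays. The 16 SIGLEC regions averaged 0.04, 0.27, 0.21 and 0.14 in arrays 1 to 4, a mean of 0.17 ± 0.10 (SD, n = 4). The 34 LILR/LAIR/KIR regions averaged -0.01, 0.27, 0.16 and 0.25, a mean of 0.16 ± 0.13 (SD, n = 4). The 24 NK lectin receptor regions averaged -0.08, 0.07, 0.57 and 0.18, a mean of 0.18 ± 0.28 (SD, n = 4). Array 1 was the lowest in each window, and the 3 sets of array values overlapped. With 4 arrays there are 16 sign patterns, and an exact sign-flip test cannot give a two-sided p below 2 of 16 (0.13). The SIGLEC minus LILR/LAIR/KIR difference was 0.00087 ± 0.077 (SD), the SIGLEC minus NK lectin receptor difference was -0.018 ± 0.25 and the LILR/LAIR/KIR minus NK lectin receptor difference was -0.019 ± 0.27, each with an adjusted p of 1 over the 3 pairs (exact sign-flip test). On single-match probes SIGLEC minus LILR/LAIR/KIR was larger, at 0.10 ± 0.085, and above 0 in 3 of 4 arrays (same test, adjusted p = 0.75). SIGLEC minus NK lectin receptor was then 0.045 ± 0.21, and LILR/LAIR/KIR minus NK lectin receptor -0.055 ± 0.23.

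Compared with the 17934 regions outside the windows, which averaged 0.01 ± 0.02 (SD, n = 4), the SIGLEC regions were higher by 0.16 ± 0.09 and in 4 of 4 arrays (exact sign-flip p at that smallest value, adjusted p = 0.3 over 6 comparisons). The LILR/LAIR/KIR regions lay above the same regions by 0.15 ± 0.13 in 3 of 4 arrays, and the NK lectin receptor regions by 0.17 ± 0.26 in 3 of 4 arrays. None of the 6 comparisons passed the adjustment, nor could any have done so with 4 arrays. Region medians were 0.12, 0.14 and 0.07 in the SIGLEC, LILR/LAIR/KIR and NK lectin receptor windows, and -0.0034 elsewhere.

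The surroundings were measured in the same way. Regions within 1 Mb of the NK lectin receptor window averaged 0.32 ± 0.23 (SD, n = 4), and 21 of these 32 were called higher. The NK lectin receptor regions lay below these flanks in every array, by 0.15, 0.25, 0.06 and 0.07, a difference of -0.13 ± 0.09 (exact sign-flip p again at its smallest value, adjusted p = 0.3). The flanks averaged 0.33 over the 10 regions below the window and 0.31 over the 22 above it. All other regions of chromosome 12 averaged 0.09 ± 0.02. On chromosome 19, the SIGLEC regions exceeded their 55 flanking regions (mean 0.11) by 0.06 ± 0.06, and the LILR/LAIR/KIR regions exceeded their 58 flanking regions (mean 0.07) by 0.09 ± 0.10, both in 3 of 4 arrays.

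**Figure D2:**
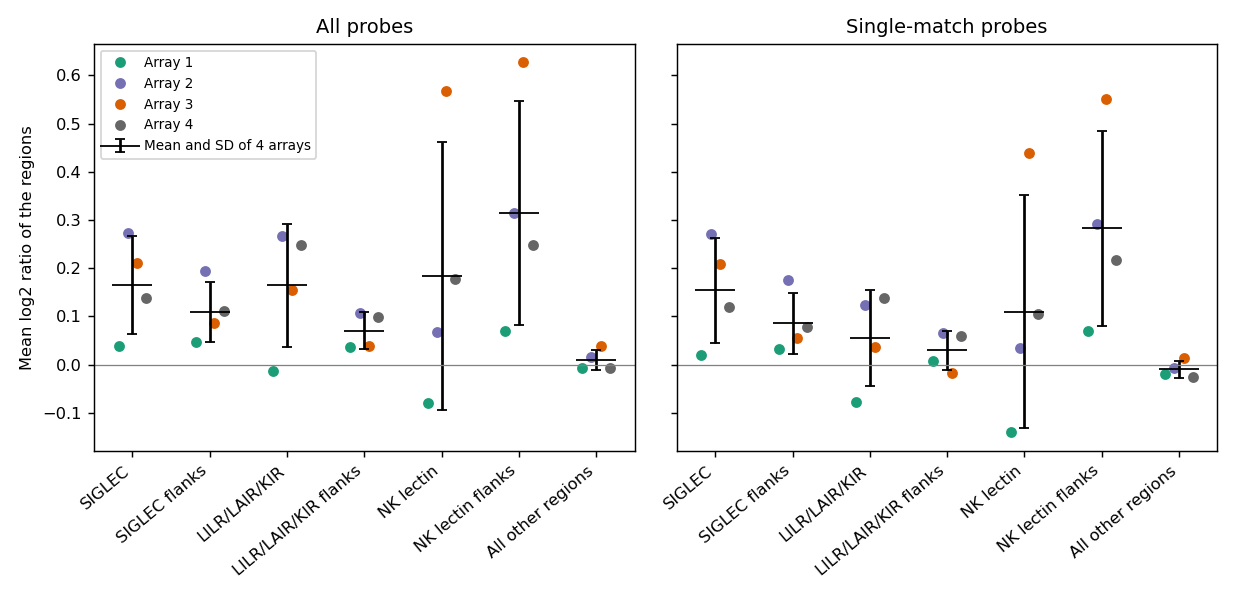
Mean log2 ratio of the regions of each window, of its flanks within 1 Mb and of all other regions, for all probes (left) and single-match probes (right), with 1 point per array and the mean and SD of 4 arrays. The NK lectin receptor window sits below its own flanks in each array, and the LILR/LAIR/KIR mean is 0.16 over 34 regions on all probes and 0.05 over the 25 regions with at least 5 single-match probes.

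At the limits of the windows, the first region inside the SIGLEC window, which crosses its boundary with 15 of 23 probes inside and was fitted whole, had a mean of -0.07 on all probes and 0.11 ± 0.13 on the 15 inside, and the nearest region outside it below had 0.40. The last SIGLEC region had 0.29 and the next one above the window 0.35. For the LILR/LAIR/KIR window the means were 0.14 just inside and -0.01 just outside the lower limit, and 0.31 and 0.11 at the upper limit. For the NK lectin receptor window they were 0.48 inside and 0.78 outside the lower limit, and 0.33 and 0.24 at the upper limit.

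In the SIGLEC window 1 promoter region stood apart. The region chr19:56582509-56584958, with 24 probes that all match once, had ratios of 0.74, 0.75, 1.16 and 0.59 in arrays 1 to 4. All 4 arrays were high, and the lowest of them lay above every array of the other 15 SIGLEC regions, whose highest value was 0.56. Its mean was 0.81 ± 0.25 (SD, n = 4; 1.75-fold; limma, adjusted p = 0.00053), above 99.6% of all regions, and it stayed called without any 1 of the arrays (0.69 to 0.88). Relative to its neighbours outside the window it was 0.62 (adjusted p = 0.0014 in the same limma test). The signal was uneven along the region. The 500 bp bin chr19:56583509-56583958 had 1.72, 1.21, 1.92 and 1.21 (mean 1.52 ± 0.36), and the first bin, chr19:56582509-56582958, had 0.66, 1.03, 1.68 and 0.59 (mean 0.99 ± 0.50). The bin between 56584009 and 56584458 was near 0, with a mean of 0.12 ± 0.14. Within the first bin the probe at 56582709-56582758 averaged 2.27 ± 2.07, and that bin was highest in arrays 3 and 2.

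The 3 next SIGLEC regions were smaller. The region chr19:56418374-56420623 had 0.11, 0.56, 0.51 and 0.28, a mean of 0.37 ± 0.21 (limma, adjusted p = 0.012). Its 8 multi-match probes averaged 0.66 ± 0.11 and its 11 single-match probes 0.15 ± 0.30, and on the single-match probes it did not pass (adjusted p = 0.29). The region chr19:56886204-56888853 had a mean of 0.29 ± 0.12 (adjusted p = 0.015), and chr19:56567272-56569922 had 0.26 ± 0.19 (adjusted p = 0.041). Both lost the call without array 2 or array 4, the second also without array 1, and the first region without array 2. None of these 3 passed after subtraction of the neighbours. The 4 lowest SIGLEC regions lay between -0.12 (chr19:56764442-56766791) and 0.03 (chr19:56612264-56614913), none of them past the threshold. They include the boundary region chr19:56299159-56301508 at -0.07, which would not be among the lowest on its probes inside the window. After subtraction of the neighbours, chr19:56764442-56766791 (-0.25, limma adjusted p = 0.033) and the boundary region (-0.24, adjusted p = 0.030) were called lower.

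**Figure D3:**
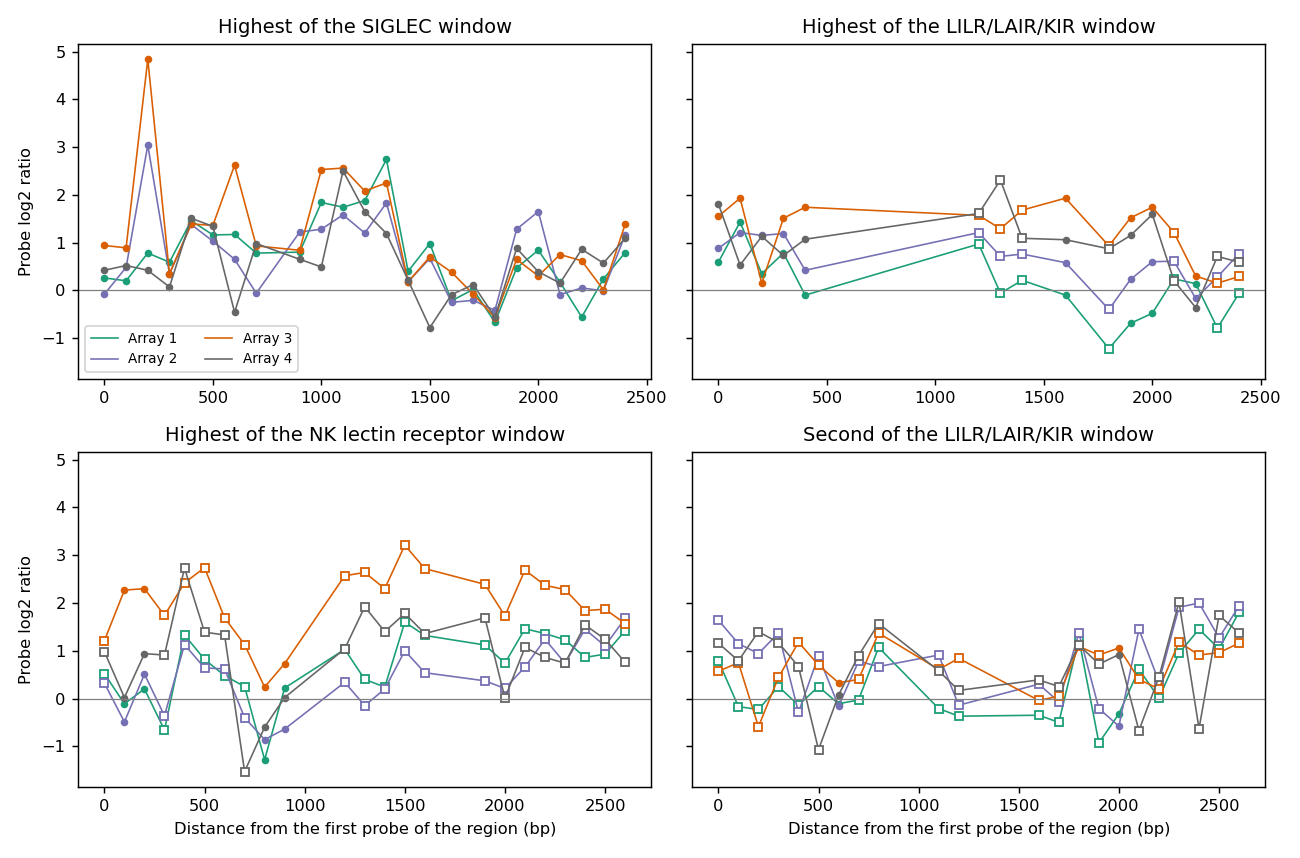
Log2 ratio of each probe in each array against the distance in bp from the first probe, for the highest region of each window and the second highest of the LILR/LAIR/KIR window. Filled circles are single-match probes and open squares are multi-match probes. The SIGLEC region is high near its middle in all 4 arrays and has a high probe near its left end in arrays 2 and 3, and array 3 lies above the others over most of the NK lectin receptor region.

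In the LILR/LAIR/KIR window the called regions were mostly those built of multi-match probes. Of the 11 regions in which at least 50% of probes were multi-match, 9 were called higher, with a median of 0.35. Of the 12 regions with single-match probes only, 0 were called higher and 1 lower, with a median of 0.0045. The same contrast was present outside the windows, where 49.4% of 946 regions with at least 50% multi-match probes and 10.9% of 13908 regions with single-match probes only were called higher. On single-match probes, 2 of 25 LILR/LAIR/KIR regions were called higher, against 4 of 16 SIGLEC and 6 of 22 NK lectin receptor regions. This test called 11.2% of all regions higher and 14.4% lower. In the flanks within 1 Mb it called 6 of 55 LILR/LAIR/KIR, 12 of 54 SIGLEC and 19 of 31 NK lectin receptor regions higher. Inside the windows it called 12 higher and 2 lower of 63 regions in all. Without array 2 there were 3 higher and without array 4 there were 4, where those tests called 4.65% and 4.64% of all regions higher.

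Mean ratios were higher for probes with more matches. LILR/LAIR/KIR probes with a single match averaged 0.03 ± 0.08 (SD, n = 4), those with 2 matches 0.27 ± 0.23, and those with 10 or more matches 0.67 ± 0.25. In all other regions the corresponding means were -0.0091, 0.16 and 0.72, and the receptor window differed from them by less than its SD between arrays. In the NK lectin receptor window, 46 probes with 2 matches averaged 0.56, 0.44, 1.84 and 0.88, a mean of 0.93 ± 0.63, where 394 single-match probes averaged 0.12 ± 0.25. That mean was above the 0.16 of 2-match probes in all other regions. Of the 54 multi-match probes of this window, 5, 19 and 23 lay in the neighbouring regions at 10451132, 10463961 and 10479359. Number of matches and position can therefore not be told apart there. SIGLEC multi-match probes averaged 0.24 ± 0.13 and single-match probes 0.16 ± 0.09. Over all members the multi-match probes exceeded the single-match probes by 0.23, 0.42, 0.42 and 0.44 in arrays 1 to 4, or 0.38 ± 0.10 (exact sign-flip p at its smallest value, adjusted p = 0.14 over 8 comparisons). Within the 14 regions that held at least 3 probes of each kind the difference was 0.22 ± 0.04, and the multi-match probes were higher in 8 of the 14. The windows differed, with 0.82 ± 0.03 in 2 NK lectin receptor regions, 0.17 ± 0.09 in 8 LILR/LAIR/KIR regions and 0.02 ± 0.14 in 4 SIGLEC regions. The 2 NK lectin receptor regions were those at 10451132 and 10463961, from the same stretch. A probe that matches several places can take up DNA from each of them, so its value cannot be assigned to 1 promoter.

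**Figure D4:**
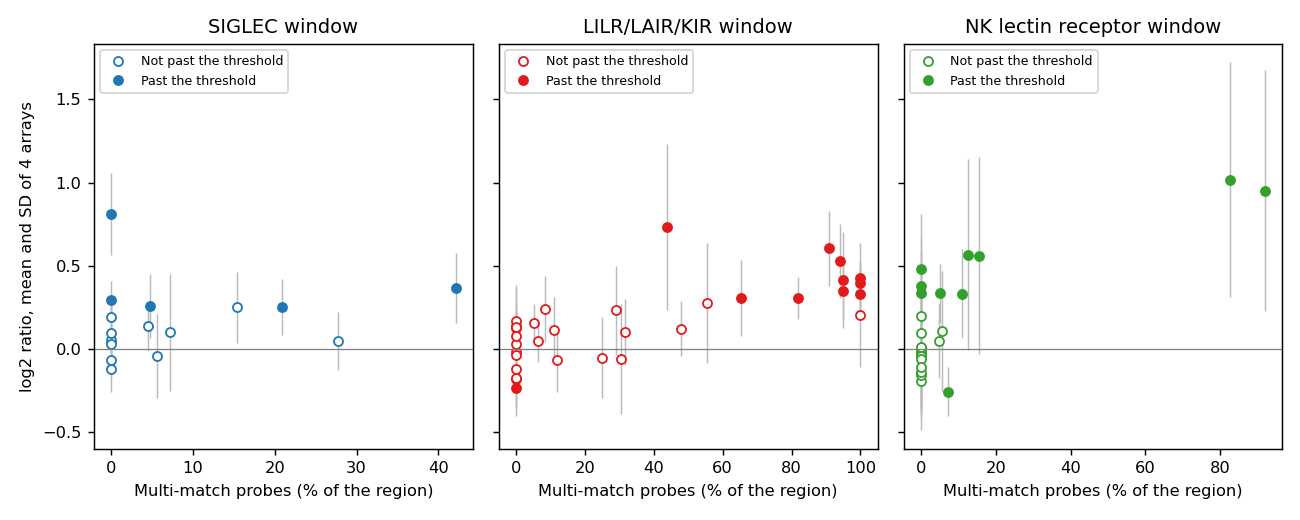
Mean log2 ratio of each region (points, with the SD of 4 arrays) against the percentage of its probes that match more than 1 place, by window. Filled points passed the limma threshold. In the LILR/LAIR/KIR panel the points at 50% or more lie above 0 and 9 of 11 are filled, while 0 of the 12 at 0% are filled above 0.

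The multi-match regions of this window formed a run. From 59925595 to 60053791 on chromosome 19, 7 neighbouring regions over 128 kb had 124 multi-match probes of 128, and 6 of them were called higher. Their mean was 0.12, 0.59, 0.45 and 0.49 in arrays 1 to 4, or 0.41 ± 0.20 (SD). Array 1 was well below the other 3. Where else their probes match is not recorded in the files, and if they match each other the 7 regions are not separate observations. The highest, chr19:59970891-59973540, had 0.28, 0.80, 0.66 and 0.69, a mean of 0.60 ± 0.23 (1.52-fold; limma, adjusted p = 0.0017). It was followed by chr19:59939585-59941934 at 0.53 ± 0.22 (adjusted p = 0.0028) and chr19:60017543-60020092 at 0.42 ± 0.21 (adjusted p = 0.0067, and 0.056 without array 4). The region of the run that was not called, chr19:60004677-60007329, had probes with at most 2 matches and a mean of 0.21 ± 0.32, with array 1 at -0.14. In the other 6 the probe with most matches had 15 or 16.

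One LILR/LAIR/KIR region was high on single-match probes as well. The region chr19:59703724-59706173 had ratios of 0.08, 0.63, 1.22 and 1.01 over 16 probes, of which 7 were multi-match with at most 2 matches. Array 1 was near 0 and the other 3 were high. Its mean was 0.73 ± 0.50 (1.66-fold; limma, adjusted p = 0.0059), and its 9 single-match probes gave 0.81 ± 0.49 (adjusted p = 0.0038). It kept its call without each array in turn (0.57 to 0.95) and relative to its neighbours (0.68). The first bin of the region, chr19:59703724-59704073, held only single-match probes and had 0.79, 1.11, 1.29 and 1.05, so array 1 was the lowest there too but well above 0. The ratios of arrays 3 and 4 exceeded those of arrays 1 and 2 by 0.76 over the whole region (limma, unadjusted p = 0.0016, adjusted over all regions not past 0.05).

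The lowest LILR/LAIR/KIR region was chr19:59383805-59387556, with -0.09, -0.28, -0.39 and -0.19 over 37 single-match probes. Its mean was -0.24 ± 0.13 (limma, adjusted p = 0.037), which was lost without array 2, 3 or 4. Next were chr19:60075160-60077814 at -0.18 ± 0.23, chr19:60150179-60152828 at -0.18 ± 0.09 and chr19:59354858-59356807 at -0.12 ± 0.23, none of them past the threshold. Region means also hid opposite signs within a promoter. In chr19:59616346-59618895, whose mean was -0.03, the bin at 59616346-59616595 had 1.23, 1.33, 0.55 and 0.76 (mean 0.97 ± 0.38) and the bin at 59617446-59617695 had -0.82, -0.98, -0.35 and -0.50 (mean -0.66 ± 0.29). In chr19:59666206-59668558 the bin at 59667209-59667658 averaged 0.91 ± 0.40 and the adjoining bin at 59667709-59668158 averaged -0.55 ± 0.12.

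The highest values of the 74 regions were in the NK lectin receptor window. The region chr12:10463961-10466618 had 0.67, 0.43, 2.03 and 0.94 over 23 probes. Array 3 was far above the other arrays. The mean was 1.02 ± 0.71 (2.02-fold; limma, adjusted p = 0.0048), and 0.68 without array 3. Its 19 multi-match probes averaged 1.19 ± 0.69 and its 4 single-match probes 0.22 ± 0.80. The neighbouring region chr12:10479359-10482017 had 0.55, 0.30, 1.95 and 1.01 over 25 probes, 23 of them multi-match, with a mean of 0.95 ± 0.72 (adjusted p = 0.0073) and 0.62 without array 3. Neither region had the 5 single-match probes needed to test it on those alone, and their probes matched at most 3 places. Their highest bins were chr12:10465461-10465921 (mean 1.59 ± 0.89) and chr12:10481359-10481815 (mean 1.43 ± 0.67), both without a single-match probe.

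Just below them on the chromosome, the region chr12:10451132-10455793 had 0.19, 0.02, 1.34 and 0.70, a mean of 0.56 ± 0.59 (limma, adjusted p = 0.032). Arrays 1 and 2 were near 0. Its 27 single-match probes averaged 0.45 ± 0.58 and did not pass (adjusted p = 0.062), and the call was also lost without array 4 (adjusted p = 0.13). The region chr12:9869743-9871721, with 8 probes, had -0.15, 0.44, 1.23 and 0.74, a mean of 0.57 ± 0.58 (adjusted p = 0.027). Array 1 was below 0, and the call was lost without array 2 or array 4. Neither region passed after subtraction of the neighbours (0.27 and 0.26).

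Among the low regions of this window, chr12:10255455-10257205 had -0.06, -0.28, -0.27 and -0.42, a mean of -0.26 ± 0.15 (limma, adjusted p = 0.031), and lost the call without array 2 or array 4. All 4 arrays were below 0. The next lowest were chr12:9913225-9915882 at -0.19 ± 0.30, chr12:9998405-9999364 at -0.16 ± 0.23 and chr12:10013280-10015737 at -0.14 ± 0.22, none of them called. Relative to their neighbours all 4 were lower, at -0.64, -0.49, -0.51 and -0.49 (adjusted p of 0.0022, 0.0020, 0.0016 and 0.0012 in that limma test). This was not particular to them, since that test called 13 of the 24 regions of the window lower, where it called 11.2% of all regions lower. The 13 include chr12:10052297-10054960, whose own mean was 0.05. The lowest bins were chr12:10072442-10072799, with -1.05, -1.27, -0.50 and -0.80 (mean -0.91 ± 0.33), and chr12:10643031-10643387 with a mean of -0.87 ± 0.37, both made of single-match probes.

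Array 3 was often the highest on chromosome 12 around this window. The ratio was highest in that array in 21 of the 24 NK lectin receptor regions, against 4 of 16 SIGLEC and 7 of 34 LILR/LAIR/KIR regions and 30.4% of all regions. The flanks of the NK lectin receptor window showed it too, in 22 of 32 regions, with means of 0.07, 0.32, 0.63 and 0.25 in arrays 1 to 4. Over the rest of chromosome 12 the array means were 0.07, 0.09, 0.12 and 0.07. Arrays 1 and 2 and arrays 3 and 4 carry different numbers in their deposited names (N39 and N44). These were read as array series, though the labels name no batch. The mean of arrays 3 and 4 minus that of arrays 1 and 2 was 0.38 in the NK lectin receptor window. It was 0.07 in the LILR/LAIR/KIR window and 0.02 in the SIGLEC window. No region of the arrays passed a limma test of this difference after adjustment (lowest adjusted p = 0.22). An unadjusted p under 0.05 was found for 11 of 24 NK lectin receptor regions, 1 of 34 LILR/LAIR/KIR regions and 0 of 16 SIGLEC regions, all of them higher in arrays 3 and 4, where 8.87% of all regions had such a p and 5.73% had it with arrays 3 and 4 higher. Within arrays 1 and 2 alone the NK lectin receptor regions averaged -0.0059. Their probes were also longer: 56.9% of their single-match probes had 55 or more bases, against 21.7% outside the windows. Those long probes averaged 0.01 ± 0.28 and the 50-base ones 0.37 ± 0.14. By array, 1 to 4, the long ones had -0.25, -0.11, 0.41 and 0.0022, and the 50-base ones 0.26, 0.41, 0.56 and 0.27. Array 3 was also the highest for long single-match probes outside the windows, at -0.14, -0.18, 0.12 and -0.03. The 50-base ones there had 0.05, 0.07, -0.03 and -0.02. With the mean of each probe length subtracted, the NK lectin receptor mean was 0.21 ± 0.19 and exceeded the other regions by 0.21 ± 0.19. In that setting 9 regions of this window were called higher. With array series as a covariate, 9 regions of this window were called higher. That fit leaves each mean over the 4 arrays unchanged, so it cannot remove a difference between the series. Whether probe length or array series accounts for the values of this window was not tested.

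**Figure D5:**
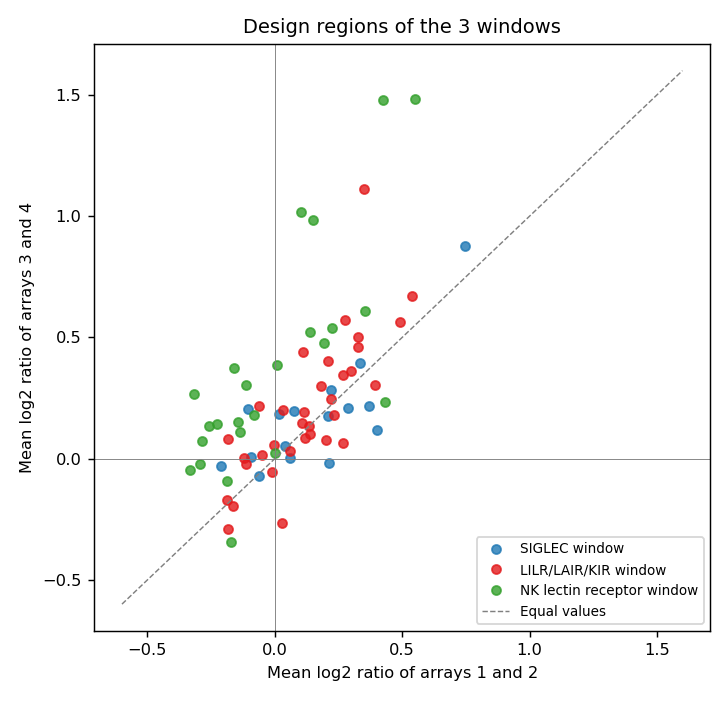
Mean log2 ratio of arrays 3 and 4 against that of arrays 1 and 2 for each of the 74 regions, coloured by window, with the line of equal values. The NK lectin receptor regions lie above the line in 22 of 24 cases, and the highest SIGLEC region lies close to it.

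Bins locate the signal within the promoters. Of 286 bins of 500 bp with at least 3 probes, 90 were higher and 31 lower (limma, adjusted over 76092 bins), where the test called 17% of all bins higher and 16.3% lower. The SIGLEC window had 21 higher and 4 lower of 72, the LILR/LAIR/KIR window 38 and 12 of 125, and the NK lectin receptor window 31 and 15 of 89. In 16 of the 74 regions a higher and a lower bin lay in the same region, where 18% of all regions had both. The lowest called SIGLEC bins were chr19:56727376-56727837 at -0.52 ± 0.32 and chr19:56299759-56300108 at -0.42 ± 0.27, the latter from the boundary region and with 1 of its 4 probes starting inside the window. On single-match probes 55 bins were higher and 30 lower of 219, where that test called 15.4% of all bins higher and 17.1% lower.

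At a size of at least 0.5 log2, 8 of the 74 regions were called higher and 0 lower, where 2.54% and 0.894% of all regions were. They were the SIGLEC region at 56582509, the 3 LILR/LAIR/KIR regions at 59703724, 59939585 and 59970891, and the 4 NK lectin receptor regions at 9869743, 10451132, 10463961 and 10479359 described above. Of these 8, only the SIGLEC region consisted of single-match probes throughout.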

How the data were processed

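The 4 arrays compare anti-HA precipitates of induced and uninduced HEK293/RPF-1 cells. Per the file headers, the deposited values are NimbleScan log2 ratios, Cy5 (635 nm) over Cy3 (532 nm), and a biweight mean is listed for each array. No file states the base of the logarithm, which was read as 2, the usual NimbleScan output. The deposited medians of 0, -0.01, 0 and 0 fit a centring done before deposit. The genome build is not given in the sources used here, nor is any background correction.

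All files list the same 386230 probes of 50 to 74 bases. Each array was centred on its probe median, and probes were averaged per design region (18008 of 18028 have at least 5 probes) and per 500 bp bin with at least 3 probes, counted from the first base of the region. Regions and bins were tested against 0 with an intercept-only model of limma (3.58.1, R 4.3.3; empirical Bayes, two-sided, Benjamini-Hochberg over all regions or bins). Window means and differences used an exact sign-flip test over the 4 arrays. The number of arrays limits the precision. The limma step was tested on simulated data with independent noise in each region. Such data do not hold array shifts shared by neighbouring regions, so the test says nothing about those.

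The members and lists were chosen with earlier results of these data known. Named in the text are the 4 highest and 4 lowest regions of each window, every called region of at least 0.5 log2, and the 2 highest and 2 lowest called bins of each window with the same sign in all arrays. Other regions and bins are named as part of a run, beside a window limit, or in a region already described, and were chosen after their values were seen.

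Alternatives were other centring and scaling, medians, single-match probes, probe length, probe minimums, subtraction of the 20 nearest regions, limma options, array series, bin sizes and leaving out arrays. The subtracted neighbour values rested on single-match probes, and the tested regions on all probes. Chosen after seeing the data were neighbours outside the windows only, probe length and array omission on single-match probes, and leaving out regions with at least 90% multi-match probes. Promoter sequences are RefSeq GRCh38.p14, and none of their coordinates was joined to the arrays.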

Additional observations from a re-analysis of the deposited data

Results flagged for a closer look

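Of 49 values with 4 arrays each that were examined, 3 had 1 array far from the rest, where chance alone gives about 2.5. In the NK lectin receptor region chr12:9913225-9915882, array 3 was at 0.26 while the other 3 arrays lay between -0.37 and -0.30. In the LILR/LAIR/KIR bin chr19:59667709-59668158, array 3 was at -0.38 and the others between -0.63 and -0.60. The multi-match minus single-match difference over all members was 0.23 in array 1 and between 0.42 and 0.44 in the others.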

How the results depend on the processing

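Leaving out 1 array gave 10 to 28 members higher and 0 to 4 lower (SIGLEC 1 to 6 higher, LILR/LAIR/KIR 4 to 14, NK lectin receptor 3 to 9), with the low counts without array 2 or 4. On single-match probes the ranges were 3 to 15 higher and 0 to 5 lower, and for bins 59 to 88 higher and 15 to 30 lower. SIGLEC minus LILR/LAIR/KIR then ranged from -0.017 to 0.038, SIGLEC minus NK lectin receptor from -0.093 to 0.095, and LILR/LAIR/KIR minus NK lectin receptor from -0.092 to 0.11. Region chr19:56726376-56728735 ranged from -0.13 to 0.073 and chr19:56612264-56614913 from -0.0021 to 0.085.

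SIGLEC minus LILR/LAIR/KIR was -0.0013 after scaling, -0.0053 with probe length subtracted, -0.00062 with at least 10 probes and -0.027 on arrays 3 and 4. With neighbours subtracted it was -0.11, LILR/LAIR/KIR minus NK lectin receptor 0.020, SIGLEC minus other regions -0.019 and minus flanks -0.0064, NK lectin receptor minus flanks 0.086, and chr19:56612264-56614913 -0.18, with 7 members lower and 2 SIGLEC regions higher. With neighbours outside the windows, 13 members were higher and 16 lower, with 1 SIGLEC and 2 NK lectin receptor regions higher. The NK lectin receptor mean was then -0.15, SIGLEC minus LILR/LAIR/KIR -0.13, SIGLEC minus NK lectin receptor 0.15, LILR/LAIR/KIR minus NK lectin receptor 0.27, SIGLEC minus other regions -0.030 and minus flanks -0.031, NK lectin receptor minus other regions -0.18, and chr19:56612264-56614913 -0.15. 

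Single-match probes gave 12 members and 2 LILR/LAIR/KIR regions higher, 55 bins higher, and SIGLEC minus NK lectin receptor 0.045 (0.00079 and 2 LILR/LAIR/KIR regions with probe length subtracted). Medians over probes gave 1 member lower and 0.030 for chr19:56299159-56301508. Trend and robust moderation gave 3 SIGLEC regions higher. Array weights gave 5 members lower, 17 LILR/LAIR/KIR regions higher and 0.010 for chr19:56726376-56728735. Arrays 1 and 2 alone gave 13 members higher (5 LILR/LAIR/KIR, 4 NK lectin receptor), an NK lectin receptor mean of -0.0059, SIGLEC and LILR/LAIR/KIR minus NK lectin receptor of 0.16 and 0.13, NK lectin receptor minus other regions of -0.010, and 0.029 for chr19:59354858-59356807. Arrays 3 and 4 alone gave 1 member lower, 2 SIGLEC regions higher and 0.0064 for chr19:56726376-56728735. At 0.5 log2, 8 members were higher and 0 lower (1 SIGLEC, 3 LILR/LAIR/KIR, 4 NK lectin receptor). Without regions of at least 90% multi-match probes, 3 LILR/LAIR/KIR regions were higher and SIGLEC minus NK lectin receptor was 0.015. Bins of 250 bp gave 150 higher and 57 lower, bins of 1000 bp 57 and 14, and a minimum of 5 probes 42 and 13. The cause was not tested in any of these cases. Some of the settings also left fewer regions, bins or arrays.

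Each array already sets induced against uninduced DNA, so the tests of the ratios are paired within the array. No further pairing was possible because the arrays form 1 group. The exact sign-flip tests over 4 arrays cannot pass the threshold, and the number of arrays limits what can be called.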
